A study of Mus musculus with 28 samples.

Results

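Solute carriers are the large family of membrane proteins that move amino acids, sugars, metals, nucleosides, lipids and ions across the plasma membrane, the mitochondrial inner membrane and the membranes of lysosomes and other organelles. Their chromatin was followed in mouse bone marrow-derived macrophages by chromatin immunoprecipitation and sequencing for the glucocorticoid receptor (GR) and for acetylated lysine 27 of histone H3 (H3K27ac), a mark of active promoters and enhancers. A peak was counted as a solute carrier peak where the nearest protein-coding gene span of mm10, within 50 kb, carried an Slc symbol of the usual form (Slc, a family number, a letter and a member number) other than Slc7a1 and Slc7a2, and where at least 10 reads lay in it in at least 3 libraries of its assay. This gave 1018 of the 58618 H3K27ac peaks tested, near 257 genes, and 72 of the 5021 GR peaks tested, near 53 genes. A further 102 H3K27ac and 63 GR peaks near these genes fell under the read minimum and were not tested. Of 362 genes with such symbols in the RefSeq gene table, 259 had a tested peak in either assay and 51 in both.

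Marrow was taken from C57BL/6 males of 8 to 10 weeks, and the macrophages were grown for 5 days in L-cell conditioned medium. They received 500 nM corticosterone (Cort, the natural glucocorticoid of rodents), 100 nM of the synthetic steroid dexamethasone (Dex), 10 ng/ml interleukin 4 (IL4), or vehicle, whose solvent is not named in the labels. Treatment lasted 24 h for every group except the H3K27ac vehicle libraries, whose labels name no time. GR was measured in 4 Cort, 4 Dex, 3 IL4 and 4 vehicle libraries, in 2 batches of which the second holds all IL4 libraries, and H3K27ac in 3 libraries of each group. Nothing in the labels says that the libraries of a group came from separate mice, so the p-values measure the spread between these libraries, which may be technical.

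Glucocorticoids enter the cell by diffusion and bind GR, which then moves to the nucleus and binds DNA as a dimer at a pair of inverted AGAACA-type sites, often with a gain of histone acetylation nearby. IL4 acts through its receptor and the transcription factor STAT6, which binds a palindrome with the arms TTC and GAA, and drives the alternatively activated state of macrophages. Macrophages depend on carriers for cystine uptake and glutathione synthesis, for iron recycling from red cells, for zinc and copper handling and for the arginine and glutamine they consume.

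The promoters of 3 carriers are shown because their start sites lay under peaks that changed: Slc10a6 with both glucocorticoids in both assays and, for H3K27ac, with IL4 as well, Slc35g1 with all 3 treatments and Slc30a4 with IL4. The windows come from RefSeq on GRCm38.p6 and run from 250 bases before to 50 bases after the start, 5′ to 3′ on the strand of the gene. They lie at chr5:103629354-103629653 (minus strand), chr19:38395730-38396029 (plus strand) and chr2:122702614-122702913 (minus strand). Capitals mark matches to the single GR site AGNACA, the GR palindrome ACANNNTGT or the STAT6 site (TTC, any 4 bases, GAA), searched on both strands.
Slc10a6: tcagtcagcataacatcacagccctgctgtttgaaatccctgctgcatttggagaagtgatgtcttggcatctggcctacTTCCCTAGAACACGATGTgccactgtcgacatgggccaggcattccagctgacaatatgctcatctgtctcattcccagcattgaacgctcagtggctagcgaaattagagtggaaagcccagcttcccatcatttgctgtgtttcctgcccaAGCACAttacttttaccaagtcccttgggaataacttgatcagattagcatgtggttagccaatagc
Slc35g1: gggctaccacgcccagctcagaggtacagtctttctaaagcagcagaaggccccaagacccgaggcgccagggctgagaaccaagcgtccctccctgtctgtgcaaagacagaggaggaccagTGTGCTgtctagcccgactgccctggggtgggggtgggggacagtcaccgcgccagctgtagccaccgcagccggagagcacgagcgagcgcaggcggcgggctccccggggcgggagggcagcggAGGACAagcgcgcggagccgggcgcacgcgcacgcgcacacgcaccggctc
Slc30a4: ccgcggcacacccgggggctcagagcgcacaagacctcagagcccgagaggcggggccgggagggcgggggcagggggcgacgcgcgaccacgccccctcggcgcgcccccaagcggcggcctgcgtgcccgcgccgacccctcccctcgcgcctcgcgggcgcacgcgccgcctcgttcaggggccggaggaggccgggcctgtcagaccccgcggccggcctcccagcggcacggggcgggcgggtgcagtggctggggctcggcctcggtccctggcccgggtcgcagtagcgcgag
In the Slc10a6 window the capitals hold a STAT6 match and, overlapping it, a single site and a palindrome that share their ACA (the joined motif), 164 bases before the start and 30 bases from the centre of the GR peak there. Another single GR site lies 17 bases before the start. The Slc35g1 window held 2 single GR sites, 1 of them on the minus strand, and the Slc30a4 window held no match. Among the 150 windows of solute carrier genes that lie under an H3K27ac peak, 33.3% held the single site, 2.67% the palindrome, 1.33% (2 windows) the joined motif and 7.33% the STAT6 site. Over all 12316 windows under an H3K27ac peak the shares were 39.3%, 4.13%, 0.690% and 5.66% in that order. A match describes these letters only and is not a measured site.

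Reads in peaks numbered 6829787 to 15695771 per H3K27ac library and 900063 to 1981582 per GR library. In the GR libraries a single peak that belongs to no solute carrier gene held 45.4% to 59.2% of the reads, so few reads were left for the others. Levels below are CPM (normalised counts scaled by reads in peaks, with TMM factors), and every change is relative to the other peaks. In GR libraries of this depth a level of a few CPM stands for only a few reads, as in many vehicle and IL4 libraries below. All 8 macrophage marker genes fixed for the check had an H3K27ac peak. The highest level near each gene, taken over 1 to 19 peaks, was 15.4 to 36.9 CPM per kb of peak in vehicle libraries. The median of all single peaks, an unlike measure, was 4.40 and their 90th percentile 13.7. Marker levels below are such highest levels too. Among markers of other cells, no peak was tested near Cd3e, Cd3g, Pax5, Ly6g, S100a9, Mpo, Hba-a1, Col1a1, Col1a2 or Pdgfra, while Ms4a1 (21.1), Lck (7.31), Klf1 (5.54), S100a8 (4.89) and all 3 dendritic cell markers (7.92 to 23.9) had one. Some of these markers moved with treatment. Flt3 had 14.1 CPM per kb with Cort, 16.6 with Dex, 3.90 with IL4 and 8.05 with vehicle, Xcr1 19.1, 17.8, 11.1 and 23.9, Ms4a1 19.1, 18.6, 13.2 and 21.1, and S100a8 7.32, 7.98, 6.31 and 4.89 in the same order. Among the macrophage markers Cd14 had 18.2 with Cort and with Dex, 7.10 with IL4 and 18.6 with vehicle. Any part of other cells in the results was not tested.

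Solute carrier genes had a median of 3 H3K27ac peaks and at most 26, and 71.3% of their peaks lay in or touched the gene, against 66.8% of all peaks. The median level of the 1018 peaks in vehicle libraries was 4.43 CPM per kb, next to 4.40 over all peaks. The highest level per kb lay near Slc12a7, a potassium-chloride cotransporter, at 27.6, 36.6 and 28.4 CPM per kb in the 3 vehicle libraries. It was followed by Slc11a2 (DMT1, an importer of ferrous iron) at 29.7, Slc39a13 (the zinc importer ZIP13) at 28.8, Slc6a6 (the taurine transporter) at 27.2, Slc7a8 (an exchanger of neutral amino acids) at 26.2 and Slc15a4 (a lysosomal histidine and peptide carrier) at 25.4. These levels, the highest of the 1018 peaks, lay within the range of the highest levels near the macrophage markers. A shift in the mix of cells and a change per cell cannot be told apart in such bulk libraries.

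In a fit that does not pair libraries by replicate number, dexamethasone and corticosterone gave few H3K27ac calls near carriers. The gains were led by peaks near the cystine-glutamate exchanger Slc7a11, the fatty acid carrier Slc27a2, the nucleoside carrier Slc28a2, the steroid sulfate carrier Slc10a6, the amino acid carrier Slc7a13 and the monocarboxylate carriers Slc16a14 and Slc16a7. With Dex 26 of the 1018 peaks rose and 29 fell (5.40%, where 5.38% of all peaks were called, 2.97% higher), and with Cort 9 rose and 8 fell (1.67%, where 1.62% of all peaks were called, 1.22% higher), in edgeR's quasi-likelihood test at a Benjamini-Hochberg adjusted p under 0.05. These shares were close to those over all peaks. The share lower was 2.85% with Dex, where 2.41% of all peaks were lower, and 0.786% with Cort, where 0.401% were. The median log2 change over the 1018 peaks was -0.01 with each steroid. The called peaks belonged to 35 genes with Dex and 14 with Cort. With the replicate number as a block, which the libraries of this assay share across groups, 207 peaks were called with Dex (94 higher, 113 lower) and 123 with Cort (58 higher, 65 lower), where 20.7% and 12.9% of all peaks were called with Dex and with Cort in the same fit.

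By substrate class, the Cort calls near amino acid carriers were 3 higher and 0 lower of 199 peaks and the Dex calls 9 and 8. Peaks of lipid, bile acid and choline carriers gave 2 higher with Cort and 4 with Dex among 56, with 0 lower. Monocarboxylate carriers gave 2 and 3 higher among 55, also with 0 lower. At the shares over all peaks, 0 lower calls among 55 or 56 peaks says little. Sugar and sugar phosphate carriers gave 0 calls with Cort and 4 lower with Dex among 71. The vesicular class, in which all calls with these steroids belonged to Slc18a1, gave 3 lower with Cort and 4 lower with Dex among 11. Cort and Dex share their vehicle libraries, so the counts of both steroids are not separate evidence.

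Slc7a11 encodes xCT, the exchanger that brings in cystine for glutathione synthesis, and it had the largest H3K27ac gain with Dex among the named peaks. The peak lies 42.5 kb from the gene (chr3:50318819-50322431). It had 46.5, 42.0 and 36.8 CPM in the Cort libraries, 56.5, 53.8 and 55.3 in the Dex libraries, 7.66, 4.78 and 6.04 in the IL4 libraries and 9.57, 5.31 and 5.33 in the vehicle libraries. Every steroid library stood above every IL4 and vehicle library. Outside a fixed panel of carriers, H3K27ac peaks were named only where the libraries of the compared groups did not overlap. Such separation of H3K27ac libraries, here and below, is therefore no added support. Over all peaks 8.94% stood wholly above vehicle and 8.45% wholly below with Cort, 11.4% and 11.5% with Dex, and 22.3% and 22.2% with IL4. This was a log2 change of 2.66 ± 0.23 (SE) with Cort (adjusted p = 6.48e-05) and 3.06 ± 0.23 with Dex (adjusted p = 1.64e-05), against -0.12 ± 0.24 with IL4. A peak inside the gene (chr3:50402025-50403606) rose by 1.14 ± 0.21 with Dex (adjusted p = 0.0078) and by 1.20 ± 0.21 with IL4.

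Slc27a2, a very long chain acyl-CoA synthetase and fatty acid transport protein, came next, at a peak 21.2 kb away for which Atp8b4 is a neighbouring gene (chr2:126530307-126531830). The levels were 10.1, 11.3 and 13.4 CPM with Cort, 18.6, 12.6 and 16.2 with Dex, 1.85, 1.05 and 0.747 with IL4 and 2.49, 2.21 and 1.80 with vehicle. No steroid library overlapped the others, and the log2 change was 2.44 ± 0.28 with Cort (adjusted p = 0.000521) and 2.88 ± 0.28 with Dex (adjusted p = 7.9e-05). With IL4 it was -0.88 ± 0.32 (adjusted p = 0.056, and 0.0247 with the replicate block).

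Slc10a6, which carries sulfated steroids, gained H3K27ac over its start site (chr5:103628322-103630581). It had 42.7, 32.5 and 47.5 CPM with Cort, 48.6, 36.4 and 44.9 with Dex, 8.65, 7.29 and 9.71 with IL4 and 16.2, 11 and 14.3 with vehicle. The steroid libraries were the highest and the IL4 libraries the lowest, with no overlap between the 3 levels. On the log2 scale the change was 1.57 ± 0.20 with Cort (adjusted p = 0.00117), 1.65 ± 0.20 with Dex (adjusted p = 0.000454) and -0.69 ± 0.20 with IL4 (adjusted p = 0.0222). The IL4 call was lost without IL4 replicate 1 or 2 or vehicle replicate 1 or 3 (adjusted p up to 0.100).

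Slc28a2, a concentrative nucleoside transporter with a near-identical neighbouring gene whose reads could be split with it, had a peak inside the gene (chr2:122438249-122440349). Its levels were 13.5, 25.1 and 13.3 CPM with Cort, 16.3, 30.3 and 23.3 with Dex, 5.81, 10.2 and 5.37 with IL4 and 4.10, 5.48 and 3.60 with vehicle. Relative to vehicle the log2 change was 1.99 ± 0.34 with Cort (adjusted p = 0.00963) and 2.41 ± 0.34 with Dex (adjusted p = 0.00141). The Cort call was lost without vehicle replicate 3 (adjusted p = 0.0748). With IL4 the change was 0.70 (adjusted p = 0.147, and 0.0043 with the replicate block).

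Slc16a14 and Slc16a7 belong to the monocarboxylate transporter family, and Slc16a7 (MCT2) carries lactate and pyruvate. The Slc16a14 peak, 10.2 kb from the gene (chr1:84945448-84946936), had 7.39, 7.24 and 9.55 CPM with Cort, 11.9, 8.27 and 12.3 with Dex, 4.45, 4.37 and 3.74 with IL4 and 2.98, 2.45 and 2.85 with vehicle, a log2 change of 1.54 ± 0.22 with Cort (adjusted p = 0.00299) and 1.97 ± 0.22 with Dex (adjusted p = 0.00028). With IL4 it was 0.60 ± 0.23 (adjusted p = 0.0655, and 0.03 with the replicate block). The Slc16a7 peak, inside the gene (chr10:125269251-125272974), had 47.1, 38.3 and 44.7 CPM with Cort, 44.8, 37.6 and 58.7 with Dex, 38.3, 38.9 and 39.2 with IL4 and 17.8, 19.7 and 24.1 with vehicle. It rose with all 3 treatments, by 1.07 ± 0.17 with Cort, 1.19 ± 0.17 with Dex and 0.91 ± 0.17 with IL4 on the log2 scale (adjusted p = 0.00736, 0.00182 and 0.00187 in that order).

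A smaller gain came at a strong peak. The broad peak inside Slc43a2, a carrier of large neutral amino acids, had 350, 375 and 439 CPM with Cort, 362, 404 and 443 with Dex, 257, 280 and 313 with IL4 and 251, 249 and 274 with vehicle (chr11:75557605-75577099). It rose by 0.59 ± 0.12 with Cort (adjusted p = 0.0276) and 0.65 ± 0.12 with Dex (adjusted p = 0.00852). Both calls were lost when scaling rested on the 25% of peaks with the lowest counts (low-count scaling). The Cort call was also lost without Cort replicate 3 or any vehicle library, and with only the groups compared in the fit (adjusted p = 0.0796). Slc7a13, an amino acid carrier with Atp6v0d2 as a neighbouring gene (chr4:19842278-19845150), rose by 1.62 ± 0.33 with Cort (adjusted p = 0.025) and 2.20 ± 0.33 with Dex (adjusted p = 0.00201). The Cort call there was lost without Cort replicate 1 or 3 or vehicle replicate 2 or 3 (adjusted p up to 0.148).

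Slc15a2, the proton-coupled peptide transporter PEPT2, moved in opposite directions with Dex and IL4 (chr16:36747075-36748854). It had 16.9, 18.3 and 16.2 CPM with Cort, 21.8, 22.2 and 17 with Dex, 3.71, 3.72 and 2.85 with IL4 and 11.1, 12.4 and 12.2 with vehicle. All steroid libraries stood above all vehicle libraries and all IL4 libraries below them. It amounted to a log2 change of 0.77 ± 0.17 with Dex (adjusted p = 0.0175, lost without Dex replicate 1 or vehicle replicate 1 or 3) and -1.80 ± 0.18 with IL4 (adjusted p = 2.3e-05). With Cort it was 0.53 (adjusted p = 0.153, and 0.018 with the replicate block). Slc49a4, a lysosomal carrier of vitamin B6, rose by 1.01 ± 0.19 with Dex (adjusted p = 0.00861), with 0.80 under Cort (adjusted p = 0.0581, and 0.0031 with the block).

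**Figure D1:**
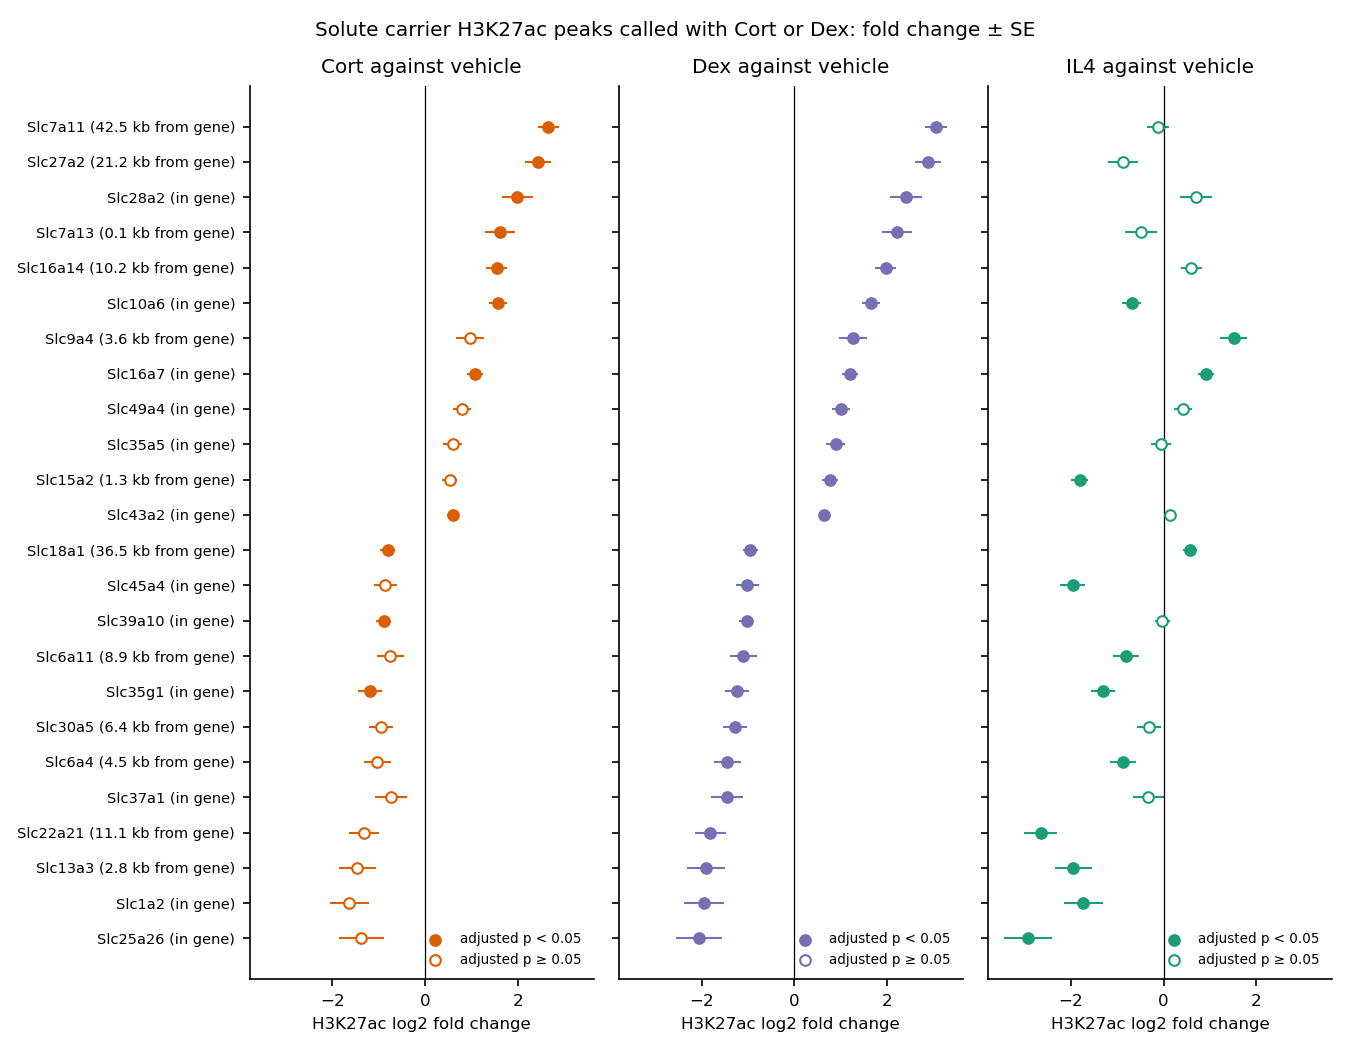
Log2 change of H3K27ac against vehicle at the named solute carrier peaks called with Cort or Dex, in panels for Cort, Dex and IL4. Points are fitted values with their standard error and filled points have an adjusted p under 0.05. Slc7a11 lies furthest to the right with Dex at 3.06 among the named peaks, while its IL4 value is -0.12.

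The losses with glucocorticoid included peaks near the zinc importer Slc39a10, the vesicular monoamine carrier Slc18a1, the carrier Slc35g1 and the dicarboxylate carrier Slc13a3. The Slc39a10 peak inside the gene (chr1:46872069-46874939) had 26.9, 28.2 and 23 CPM with Cort, 24.2, 27.7 and 19.4 with Dex, 53.0, 44 and 45.9 with IL4 and 53.6, 46.4 and 45.3 with vehicle. The steroid libraries all stood below the others. The fitted log2 change was -0.89 ± 0.16 with Cort (adjusted p = 0.0113, and 0.0599 without Cort replicate 3) and -1.03 ± 0.16 with Dex (adjusted p = 0.00238), against -0.02 with IL4.

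Among the peaks assigned to Slc18a1, 4 outside the gene fell with Dex and 3 with Cort. The one 36.5 kb away (chr8:68995080-69001245) had 27.9, 36 and 32.7 CPM with Cort, 26.1, 34.2 and 27.6 with Dex, 78.6, 86.4 and 87.1 with IL4 and 48.6, 53.4 and 67.5 with vehicle. It fell by 0.81 ± 0.16 with Cort (adjusted p = 0.0207) and by 0.95 ± 0.16 with Dex (adjusted p = 0.00415) and rose by 0.57 ± 0.16 with IL4 (adjusted p = 0.0149), with no overlap of the steroid, IL4 and vehicle libraries. The Cort call was lost without Cort replicate 1 or 3 or vehicle replicate 2 or 3 (adjusted p up to 0.113), and with only the groups compared in the fit (adjusted p = 0.0767). Low-count scaling ended the Cort and IL4 calls, and the IL4 call was also lost without vehicle replicate 1 or 2.

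Slc35g1 fell over its start site with all 3 treatments (chr19:38395079-38397521). It had 3.84, 5.85 and 5.17 CPM with Cort, 6.25, 5.14 and 3.29 with Dex, 5.68, 3.80 and 4.48 with IL4 and 9.07, 12.9 and 12.2 with vehicle, and all treated libraries lay below all vehicle libraries. The log2 change was -1.19 ± 0.26 with Cort (adjusted p = 0.0402), -1.24 ± 0.26 with Dex (adjusted p = 0.0163) and -1.30 ± 0.26 with IL4 (adjusted p = 0.00269). The Cort call was lost without Cort replicate 1 or 3 or vehicle replicate 2 or 3, under low-count scaling and with only the groups compared in the fit (adjusted p = 0.0633), and the Dex call without Dex replicate 3 or vehicle replicate 2 or 3.

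Slc13a3, the sodium-dependent dicarboxylate transporter NaDC3, had peaks that moved in opposite directions with Dex. The start site peak (chr2:165469669-165474717) had 8.25, 22.5 and 10.4 CPM with Cort, 9.69, 16.9 and 5.48 with Dex, 5.19, 6.48 and 5.91 with IL4 and 26.1, 59.2 and 31.1 with vehicle. It fell by 1.86 ± 0.43 with Dex (adjusted p = 0.0251) and by 2.72 ± 0.45 with IL4 (adjusted p = 0.000775). A second peak (start 165475979) fell by 1.90 with Dex and by 1.94 with IL4, with -1.47 under Cort (adjusted p = 0.0919, and 9.1e-05 with the replicate block). A peak within the gene that holds a GR peak (chr2:165452782-165454488) rose by 0.86 ± 0.22 with Dex (adjusted p = 0.0366). Each of these Dex calls was lost in at least 1 fit that left out a library, and the rise in all 6 of them.

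Peaks near several further carriers fell with Dex: Slc25a26, the mitochondrial carrier of S-adenosylmethionine (-2.05 and -2.77 at 2 peaks), the anion exchanger Slc4a3 (-3.11 and -2.49 at 2 peaks), the glutamate transporter Slc1a2 (-1.95), Slc22a21, a carnitine carrier (-1.81), the glucose-6-phosphate carrier Slc37a1 (-1.45) and the serotonin transporter Slc6a4 (-1.44). The zinc carrier Slc30a5 (-1.28) fell as well. Of these, the Slc22a21 peak, the Slc25a26 peak at -2.77 and the Slc4a3 peak at -3.11 were called in every fit that left out 1 library, while all the others were lost without vehicle replicate 3, among other libraries (adjusted p up to 0.123). Of the 29 peaks lower with Dex, 8 were called in every fit that left out 1 library, against 12 of the 26 higher. For Cort these were 0 of the 8 lower and 5 of the 9 higher, namely the peaks near Slc7a11, Slc27a2, Slc10a6, Slc16a14 and Slc16a7. Between Dex and Cort, whose doses differed, 0 of 1018 peaks were called (22 at an unadjusted p under 0.05, and 0 with DESeq2), over all peaks 0%.

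**Figure D2:**
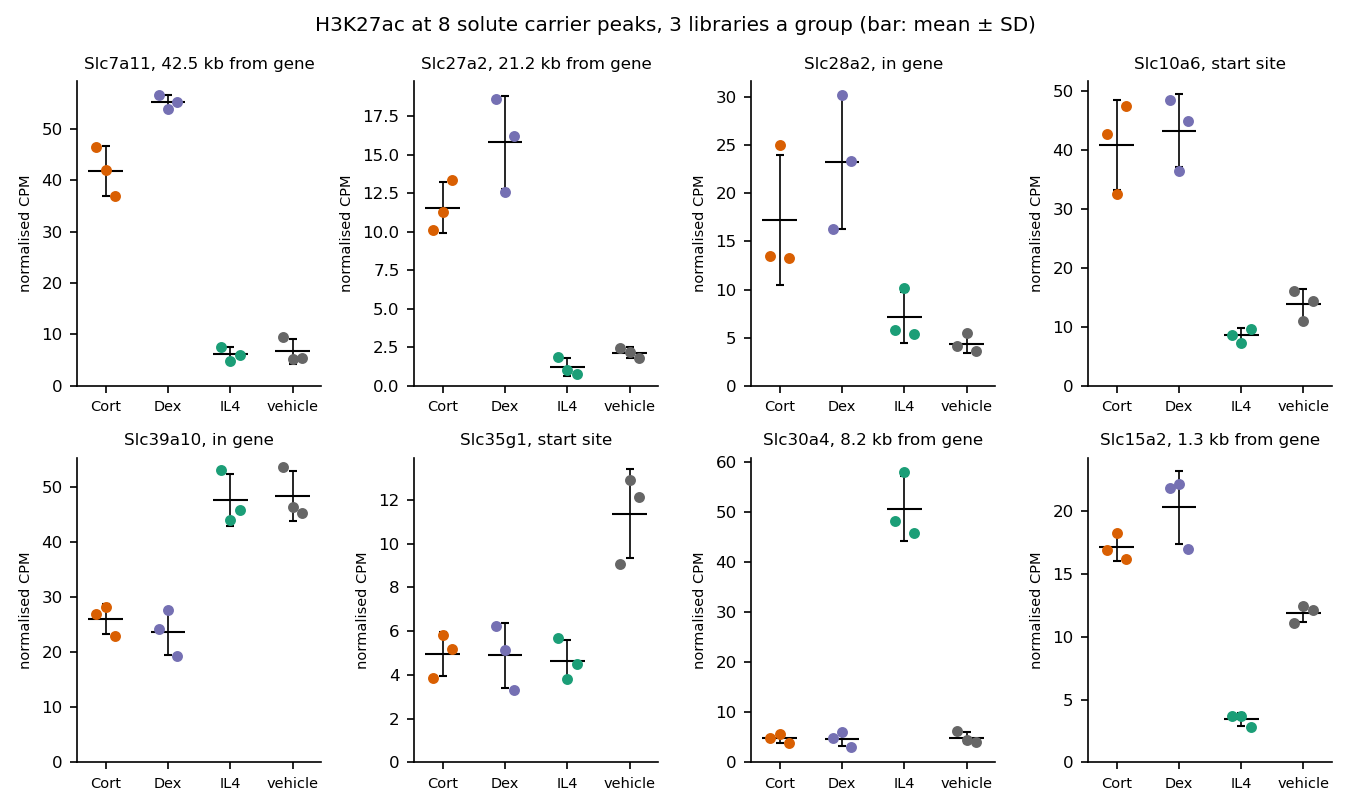
Normalised H3K27ac CPM of each library at 8 solute carrier peaks, with the mean and SD (n = 3) for Cort, Dex, IL4 and vehicle. The steroid libraries stand above all others near Slc7a11, Slc27a2 and Slc10a6, and the IL4 libraries near Slc30a4.

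GR occupancy rose with both glucocorticoids near carriers whose H3K27ac also rose with both: Slc10a6, Slc7a11, Slc16a14, Slc43a2 and Slc28a2. With Cort 12 of the 72 GR peaks were higher and 5 lower (23.6%, where 28.3% of all GR peaks were called), and with Dex 11 were higher and 5 lower (22.2%, where 31% were called). The share higher was 16.7% with Cort and 15.3% with Dex, where 13% and 15.2% of all GR peaks were higher, and the share lower was 6.94% with each, where 15.3% and 15.8% of all GR peaks were lower. With scaling on total counts, which moved the median log2 change of all GR peaks by 0.80 for Cort and 0.98 for Dex, 21 peaks were higher with Cort and 25 with Dex and 0 lower with either. Over all 5021 GR peaks this scaling gave 1555 higher and 25 lower with Cort, and 1915 and 25 with Dex. GR peaks near carriers lay inside or against the gene in 62.5% of cases, against 52.4% over all GR peaks, and 1 of them lay over a start site, that of Slc10a6.

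At the Slc10a6 start site (chr5:103629385-103629798) GR had 41.7, 39.1, 35.3 and 45.4 CPM in the Cort libraries and 61.7, 44.3, 41 and 53.8 in the Dex libraries. The IL4 libraries had 7.41, 14.5 and 5.88 and the vehicle libraries 8.70, 6.76, 8.72 and 5.26. The lowest steroid library had more than the highest IL4 or vehicle library. This was a log2 change of 2.43 ± 0.33 with Cort (adjusted p = 0.000316) and 2.74 ± 0.33 with Dex (adjusted p = 0.000103), and within batches 1 and 2 it was 2.50 and 2.34 with Cort and 2.85 and 2.76 with Dex. With IL4 it was 0.36 ± 0.37 (adjusted p = 0.772), and Dex minus Cort was 0.31 ± 0.29. The joined motif printed in capitals above lies in this peak.

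The Slc7a11 GR peak lies 43.7 kb from the gene, within the H3K27ac peak described above (chr3:50320894-50321228). It had 25.8, 26.1, 16.8 and 24.3 CPM with Cort, 18.1, 22.1, 28.5 and 19.3 with Dex, 4.72, 8.58 and 5.88 with IL4 and 2.90, 4.51, 5.60 and 7.89 with vehicle. No steroid library overlapped the others. On the log2 scale the change was 2.15 ± 0.34 with Cort (adjusted p = 0.000798) and 2.05 ± 0.33 with Dex (adjusted p = 0.00069), with 2.85 and 1.50 in batches 1 and 2 for Cort and 2.45 and 1.89 for Dex.

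Near Slc16a14 (chr1:84945974-84946342, 10.7 kb away) GR had 19.2, 14.5, 13.4 and 22.1 CPM with Cort, 22.6, 14.3, 15.4 and 23.5 with Dex, 6.06, 6.60 and 11 with IL4 and 4.35, 3.38, 5.60 and 2.63 with vehicle. This was a log2 change of 2.05 ± 0.35 with Cort (adjusted p = 0.0016) and 2.18 ± 0.35 with Dex (adjusted p = 0.000679), with 2.23 and 1.85 in batches 1 and 2 for Cort and 2.31 and 2.17 for Dex. A second peak of the same gene, 31.1 kb away (chr1:84966418-84966493), fell by 1.39 ± 0.38 with Cort and by 1.73 ± 0.40 with Dex, calls that were lost under total-count scaling.

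Slc43a2 held 2 GR peaks that rose. The stronger, inside the gene (chr11:75573049-75573420), had 45, 28.1, 42.5 and 34.3 CPM with Cort, 43.6, 40.3, 34.5 and 51.1 with Dex, 13.5, 21.1 and 11.8 with IL4 and 11.6, 16.9, 7.47 and 6.57 with vehicle. Its log2 change was 1.85 ± 0.34 with Cort (adjusted p = 0.00226) and 2.03 ± 0.34 with Dex (adjusted p = 0.00079), with 1.44 and 2.32 in batches 1 and 2 for Cort and 1.59 and 2.64 for Dex. The other (chr11:75549863-75550239) rose by 1.26 ± 0.26 with Cort (adjusted p = 0.00398) and 1.38 ± 0.26 with Dex (adjusted p = 0.00142).

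Slc31a2, a copper transporter related to CTR1, gained GR inside the gene (chr4:62280170-62280486). It had 9.83, 18.1, 15.1 and 19.9 CPM with Cort, 24.3, 21.1, 14.3 and 36.8 with Dex, 0.674, 3.30 and 2.20 with IL4 and 1.45, 7.88, 3.11 and 6.57 with vehicle. The lowest IL4 and vehicle values stand for only a few reads. Relative to vehicle the log2 change was 1.72 ± 0.48 with Cort (adjusted p = 0.0171) and 2.35 ± 0.48 with Dex (adjusted p = 0.00234), with 1.55 and 1.81 in batches 1 and 2 for Cort and 2.22 and 2.55 for Dex. The further GR gains were near Slc28a2 (1.71 ± 0.44 with Cort, 1.68 ± 0.44 with Dex), the amino acid carriers Slc7a8 (1.39 ± 0.39 and 1.82 ± 0.38), Slc7a13 (1.23 ± 0.36 and 1.46 ± 0.35) and Slc6a19 (1.28 ± 0.34 and 1.30 ± 0.34), and Slc13a3 (1.41 ± 0.39 and 1.17 ± 0.40). The Slc13a3 Dex call was lost in 6 of the 8 fits without 1 library. The Cort calls near Slc7a8 and Slc13a3 were lost without vehicle replicate 2 and that near Slc7a13 without Cort replicate 4. Slc40a1, the iron exporter ferroportin, rose with Cort alone among the calls (1.16 ± 0.41, adjusted p = 0.0484), with 0.45 under Dex (adjusted p = 0.449), and its Cort call was lost in 7 of the 8 fits without 1 library. Every higher call was positive within both batches, from 0.61 to 2.85 with Cort and 1.03 to 2.85 with Dex. Of the 5 lower calls with each steroid, 4 were negative within each batch, and the remaining call was not tested in that batch. The calls rest on the libraries of both batches, so a shared sign is no separate support.

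The lower GR calls included a peak inside the zinc exporter Slc30a4 (ZnT4) at chr2:122681266-122682354, which had 47.8, 37.6, 84.5 and 53.7 CPM with Cort, 36.8, 30.5, 62.4 and 49.7 with Dex, 94.3, 92.4 and 88.9 with IL4 and 81.2, 77.7, 96.5 and 195 with vehicle. The Cort and vehicle libraries overlapped, and the Dex libraries all stood below the vehicle libraries. It amounted to a log2 change of -0.98 ± 0.26 with Cort (adjusted p = 0.0119) and -1.31 ± 0.26 with Dex (adjusted p = 0.00189). Without vehicle replicate 4 the Cort value was -0.63 (adjusted p = 0.0646), and under total-count scaling the values were -0.08 for Cort and -0.20 for Dex, neither called. A peak assigned to Slc22a29, in a cluster of near-identical carrier genes whose reads could be split (chr19:8252199-8252314), had 32.3, 33.6, 42.5 and 34.9 CPM with Cort, 22.6, 21.1, 27.3 and 23 with Dex, 125, 134 and 112 with IL4 and 44.9, 56.3, 100.3 and 48.6 with vehicle. It fell by 0.79 ± 0.25 with Cort (adjusted p = 0.0313) and by 1.39 ± 0.26 with Dex (adjusted p = 0.00136), and its IL4 libraries, all in batch 2, stood above all vehicle libraries without a call. Near Slc38a2, the glutamine and alanine importer SNAT2, a peak fell by 0.89 ± 0.31 with Cort (adjusted p = 0.0472) and by 1.10 ± 0.32 with Dex (adjusted p = 0.0161). The Cort calls near Slc22a29 and Slc38a2 were lost in 5 and 7 of the 8 fits without 1 library. With only the groups compared in the fit, the Cort calls near Slc22a29, Slc30a4 and Slc38a2 were all lost (adjusted p = 0.139, 0.0746 and 0.0654). A second GR peak near Slc13a3 (chr2:165448621-165448702), apart from the one that rose, had 1.87, 5.02, 0.560 and 0.553 CPM with Cort, 6.22, 5.90, 2.38 and 4.14 with Dex, 2.70, 3.96 and 2.94 with IL4 and 7.25, 12.4, 4.98 and 3.94 with vehicle. It fell by 1.88 ± 0.44 with Cort (adjusted p = 0.00747), with -0.61 under Dex (adjusted p = 0.266), and the Cort call was lost in batch 1 alone (-1.44, adjusted p = 0.0661). The lowest Cort values at this peak stand for only a few reads. Inside Slc6a9, the glycine transporter GlyT1, a peak fell by 1.48 ± 0.45 with Dex (adjusted p = 0.0225), a call lost without Dex replicate 1 or vehicle replicate 1 or 3. No lower GR call held under total-count scaling.

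The GR peak 44.1 kb from Slc16a9 held 1 library far above the others (chr10:70330097-70330227). It had 3.28, 6.02, 14.0 and 343 CPM with Cort, 4.53, 5.41, 13.7 and 5.52 with Dex, 65.4, 16.5 and 25 with IL4 and 7.25, 21.4, 29.3 and 15.8 with vehicle. The Cort value was 1.31 ± 1.11 (adjusted p = 0.374) and turned to -1.23 ± 0.44 (adjusted p = 0.0271) without Cort replicate 4, so 1 library decided its direction. With Dex it was -1.44 ± 1.03 (adjusted p = 0.315).

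**Figure D3:**
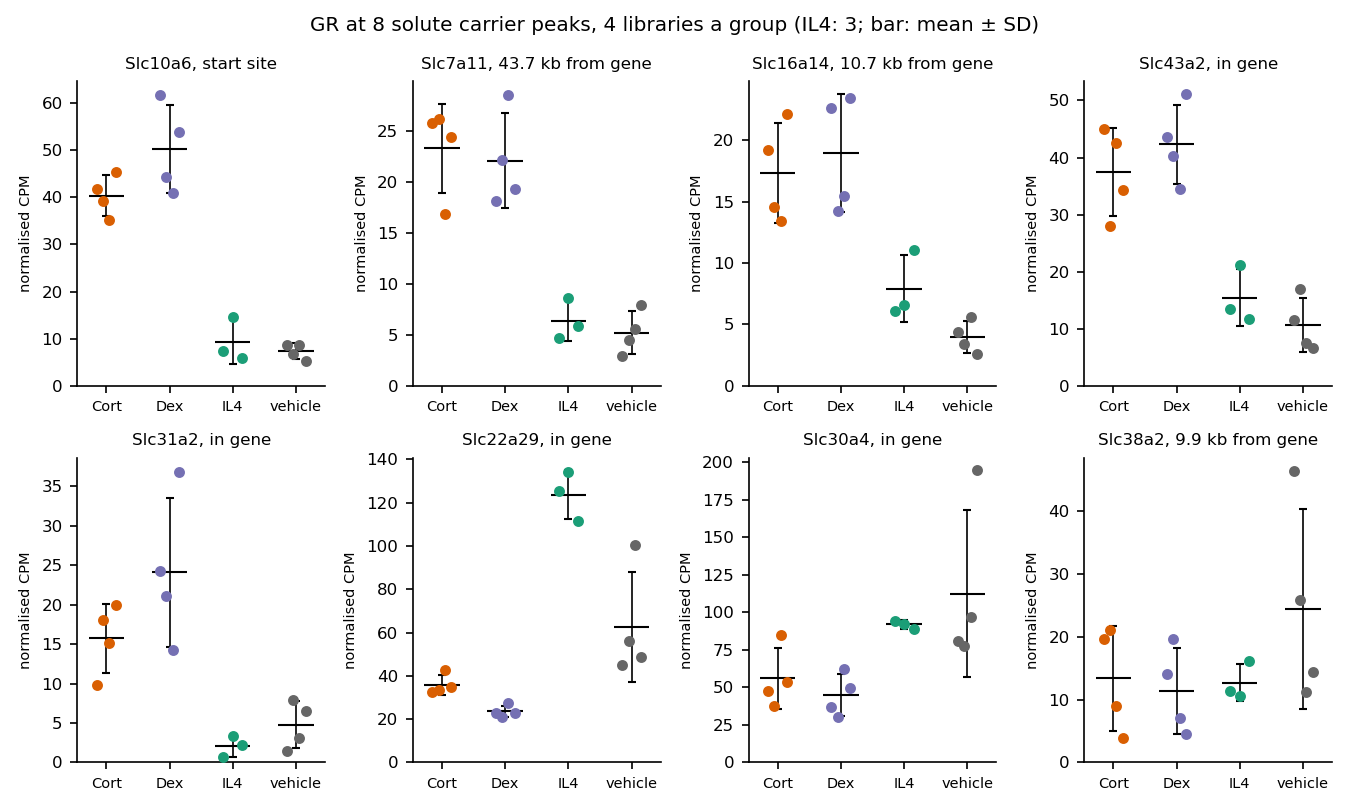
Normalised GR CPM of each library at 8 solute carrier peaks, with the mean and SD for Cort (n = 4), Dex (n = 4), IL4 (n = 3) and vehicle (n = 4). At the Slc10a6 start site all steroid libraries lie at 35.3 or above and all others at 14.5 or below.

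With IL4 0 of the 72 GR peaks were called (6 at an unadjusted p under 0.05, 0 with DESeq2), as over all GR peaks (0%). The IL4 libraries are in batch 2 alone, so this comparison rests on that batch and on the batch difference of the other groups. Between Dex and Cort 0 were called as well (6 at an unadjusted p under 0.05, 0 with DESeq2), over all GR peaks 0%, at doses that differed.

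Of the 72 GR peaks, 62 (86.1%) overlapped a tested H3K27ac peak by at least 1 base, where 69.8% of all GR peaks did. All 12 GR peaks higher with Cort and all 11 higher with Dex lay in H3K27ac peaks, where the shares over all higher GR peaks were 98.3% and 97.5%. The H3K27ac peak was also higher in 5 of the 12 with Cort (41.7%) and in 9 of the 11 with Dex (81.8%), where it was for 40.9% and 56.1% of all higher GR peaks in a tested H3K27ac peak. The median H3K27ac log2 change around the higher solute carrier GR peaks was 0.66 with Cort and 0.86 with Dex. The 5 Cort peaks belonged to Slc7a11, Slc10a6, Slc28a2, Slc16a14 and Slc43a2, and the 9 Dex peaks lay near these genes and Slc7a13, Slc7a8 and Slc13a3. Slc31a2, Slc6a19 and Slc40a1 had a higher GR peak with at least 1 steroid and no H3K27ac call around it without the replicate block. Of the 5 lower GR peaks 3 (60%) lay in an H3K27ac peak with each steroid, where 17.1% of all lower GR peaks did with Cort and 14.0% with Dex. None of these 3 had an H3K27ac call with either steroid, and over all lower GR peaks in a tested H3K27ac peak 0.769% had a higher and 0.769% a lower one with Cort, and 0% and 2.70% with Dex.

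**Figure D4:**
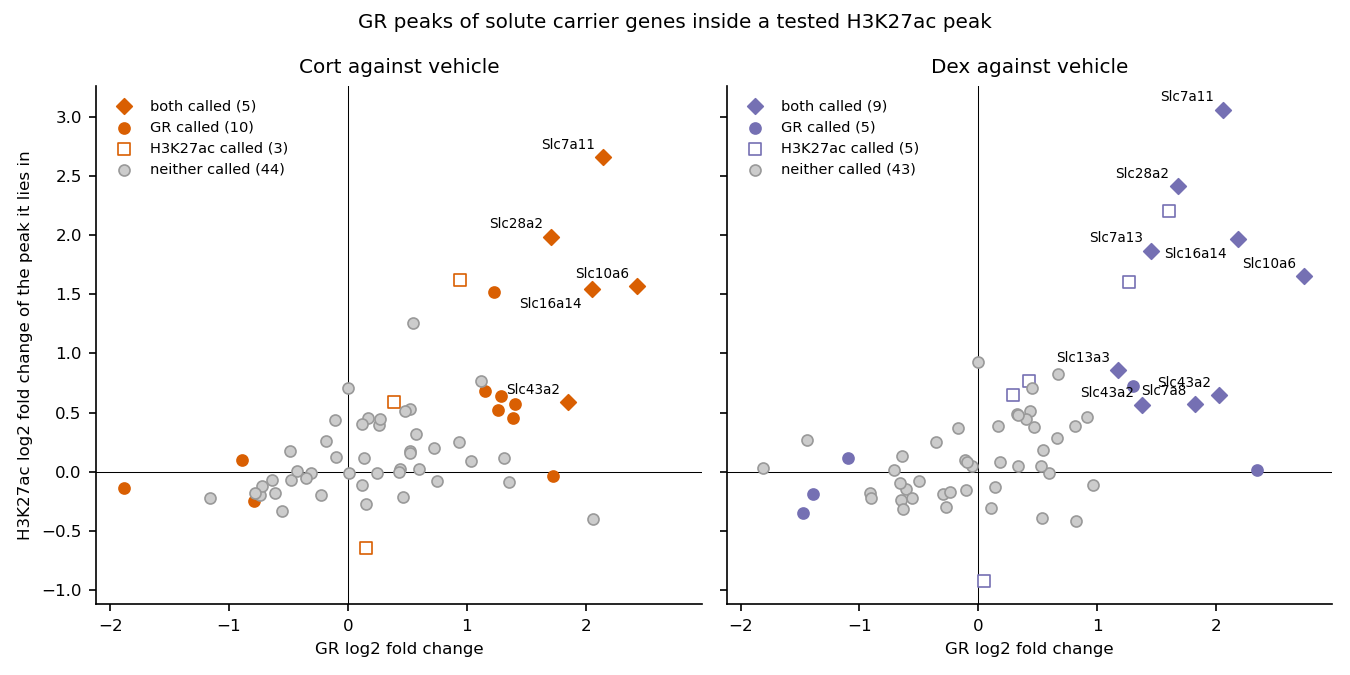
Log2 change of GR against vehicle (horizontal) and of the H3K27ac peak around it (vertical) for the 62 solute carrier GR peaks that overlap an H3K27ac peak, in panels for Cort and Dex. Slc7a11 and Slc10a6 lie at the upper right in both panels, with GR changes of 2.15 and 2.43 for Cort and 2.05 and 2.74 for Dex.

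IL4 changed H3K27ac at many more carriers, with the largest gains near the amino acid carrier family member Slc7a14, the zinc exporter Slc30a4 and the mitochondrial carriers Slc25a32, Slc25a13 and Slc25a30, and with losses near Slc25a26, Slc22a21, Slc39a4 and Slc15a2. Of the 1018 peaks 183 rose and 143 fell (32%, where 28.0% of all peaks were called). The share higher was 18%, where 14.9% of all peaks were higher, and the share lower 14.0%, where 13.1% were lower. The calls touched 150 genes, of which 71 had only higher, 59 only lower and 20 both kinds of peak. Under low-count scaling, which moved the median of all peaks by -0.14 on the log2 scale, 144 peaks were higher and 170 lower. Of all 58618 peaks 6704 were higher and 9358 lower under that scaling. Over start sites 16 peaks rose and 12 fell of 120 (23.3%, where 14.6% of all start site peaks were called).

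The amino acid carriers, the class with the most peaks, had 51 higher and 20 lower of 199 peaks, in 20 and 14 of 41 genes (41 higher and 24 lower under low-count scaling). Their share called was 35.7%, where 28.0% of all peaks were called, 14.9% higher and 13.1% lower. Over the classes this share ran from 17.9% for vitamin carriers to 45.5% for the 11 vesicular peaks. Carriers of iron, zinc, copper, other metals and haem had 27 higher and 19 lower of 132 peaks (22 and 20 under low-count scaling). Mitochondrial carriers had 21 higher and 17 lower of 115, and bicarbonate and cation exchangers 21 higher and 23 lower of 130. Lipid, bile acid and choline carriers had 10 higher and 4 lower of 56, counts that became 8 and 9 under low-count scaling. Organic ion carriers had 4 higher and 10 lower of 33, cation-chloride cotransporters 2 and 7 of 28, monocarboxylate carriers 4 and 8 of 55, and nucleotide sugar carriers 5 and 8 of 44. Nucleoside carriers had 6 higher and 2 lower of 27.

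**Figure D5:**
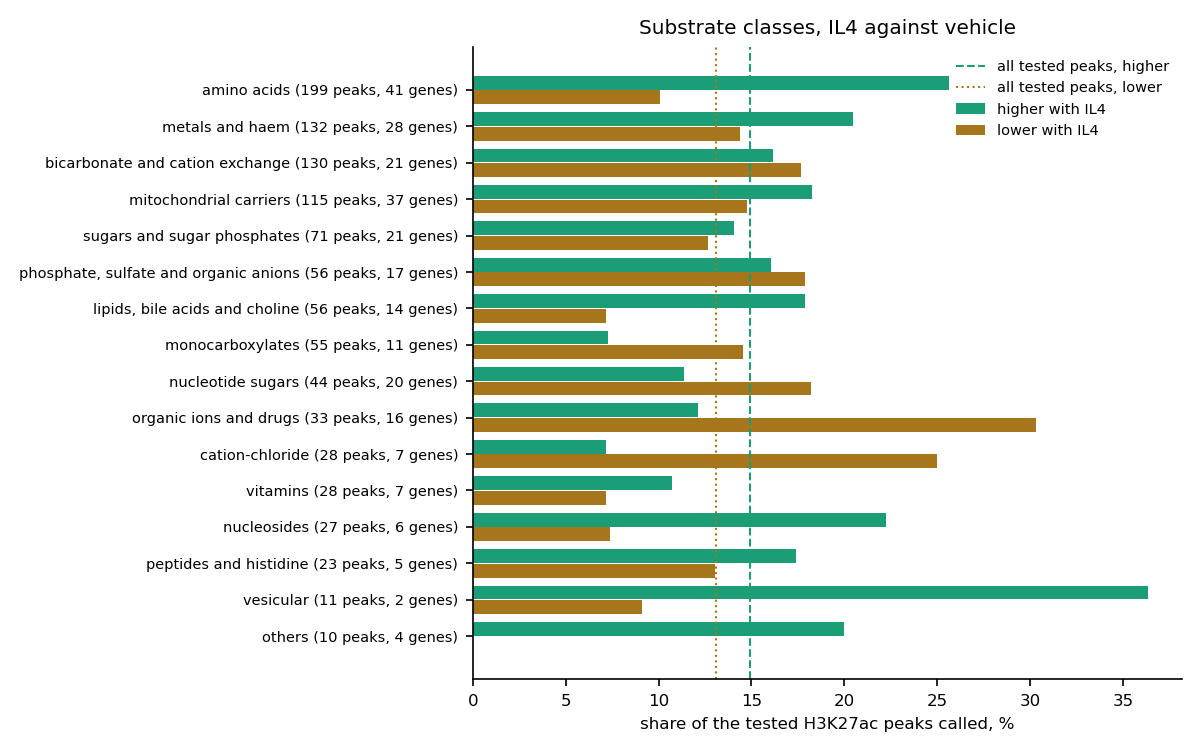
Percentage of H3K27ac peaks higher and lower with IL4 than with vehicle in each substrate class of solute carriers. A dashed line gives the share higher over all tested peaks (14.9%) and a dotted line the share lower (13.1%), and amino acid carriers had 51 higher and 20 lower peaks of 199.

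Slc7a14, a member of the cationic amino acid carrier family, had the largest gain with IL4 among the named peaks (chr3:31265176-31268114, inside the gene). It had 18.7, 15.3 and 26.2 CPM with IL4 and 1.37, 1.39 and 1.49 with vehicle, and the groups lay far apart. The fitted log2 change was 3.81 ± 0.35 (adjusted p = 1.3e-05), and all 7 of its peaks rose.

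Slc30a4 rose at all 4 of its H3K27ac peaks. The one 8.23 kb from the gene (chr2:122710897-122713687) had 48.2, 58.0 and 45.8 CPM with IL4 and 6.21, 4.41 and 4.16 with vehicle, a log2 change of 3.38 ± 0.25 (adjusted p = 2.6e-06). Over the start site, whose sequence is given above, the levels were 7.91, 10.3 and 8.35 with IL4 and 3.48, 2.78 and 1.98 with vehicle (1.71 ± 0.24). Slc30a1 (ZnT1), the zinc exporter of the plasma membrane, had 22.1, 33 and 28.7 CPM with IL4 and 5.34, 6.05 and 5.33 with vehicle at a peak that rose by 2.32 ± 0.22, and 4 of its 7 peaks rose. The zinc importer Slc39a4 (ZIP4) had 11.1, 8.58 and 10.1 CPM with IL4 and 36.7, 32.4 and 33 with vehicle and fell by 1.78 ± 0.14. Slc39a14 (ZIP14), an importer of zinc and iron, fell by 1.37 at its strongest peak, and Slc30a9 fell by 2.06.

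Among mitochondrial carriers, 8 of the 9 peaks of Slc25a13, the aspartate-glutamate carrier citrin, rose with IL4. One of them (start 6095253 on chromosome 6) had 21.0, 19.9 and 17 CPM with IL4 and 3.85, 2.29 and 3.97 with vehicle, a change of 2.51 ± 0.23, and the start site peak rose by 1.38 ± 0.23. Slc25a30 had 21.1, 26.7 and 23.8 CPM with IL4 and 3.85, 4.90 and 4.03 with vehicle (2.48 ± 0.27). Slc25a32, the mitochondrial folate carrier, rose by 2.96 ± 0.32. In the other direction Slc25a26 fell by 2.92 at one peak and had 5 of 8 peaks lower, and Slc25a33, a pyrimidine nucleotide carrier, fell by 1.65.

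Further gains with IL4 were near Slc22a23 (2.61), the sodium-proton exchanger Slc9a8 (2.35), Slc35b3, which brings the sulfate donor PAPS into the Golgi (2.28), and Slc26a8 (2.28). Further losses were near Slc22a21 (-2.65, with all 4 peaks lower), the sucrose and proton symporter family member Slc45a4 (-1.96), Slc17a2 (-1.78) and Slc1a2 (-1.73 at 1 peak, while 6 of its 11 peaks rose). The Slc22a29 region fell by 2.03 ± 0.17 at a peak with 6.67, 6.07 and 4.75 CPM with IL4 and 23, 21.4 and 26.5 with vehicle. All 20 of these largest IL4 changes, 10 in each direction, were called in every fit that left out 1 library and under every scaling tried. They were picked as the largest calls of these same data, so this is no separate support. Of all IL4 calls, 122 of 183 higher and 74 of 143 lower were called in every fit that left out 1 library. Under every scaling 142 of the higher and 127 of the lower were called.

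By gene, chosen here after the values were seen, higher calls lay at Slc25a13, Slc7a14, the glutamate transporter Slc1a2 (6 of 11 peaks), the magnesium carrier Slc41a2 (6 of 16) and Slc7a11 (6 of 13). Lower calls lay at the endosomal sodium-proton exchanger Slc9a9 (9 of 21, with 1 higher), the potassium-dependent sodium-calcium exchanger Slc24a3 (6 of 16, with 1 higher), the cationic amino acid carrier Slc7a7 (5 of 7) and the sodium-chloride cotransporter Slc12a3 (5 of 6). Over all peaks 14.9% were higher and 13.1% lower with IL4, and genes picked for their counts will exceed such shares. At Slc7a7, which encodes y+LAT1, a peak (start 54397146 on chromosome 14) had 42.1, 49.5 and 48.2 CPM with IL4 and 90.1, 116 and 95.5 with vehicle, a fall of 1.11 ± 0.12.

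A panel of 38 carriers known in macrophages, each read at its strongest H3K27ac peak, was measured for 37 genes. With Cort and with Dex 0 of the 37 were called, with log2 changes from -0.62 to 0.69 and from -0.77 to 0.73. With IL4 6 were higher: Slc7a11 (0.94), the glucose transporter Slc2a1 (0.75), Slc30a1 (0.74), the lysosomal nucleoside carrier Slc29a3 (0.64), the glutamine carrier Slc1a5 (0.62) and the fatty acid transport protein Slc27a1 (0.46). A further 5 of the 37 were lower, where 14.9% of all peaks were higher and 13.1% lower, among them Slc39a14 (-1.37), the glucose transporter Slc2a3 (-0.75), Slc7a7 (-0.71) and the urate transporter Slc2a9 (-0.50). Under low-count scaling the calls for Slc30a1, Slc29a3, Slc1a5 and Slc27a1 were lost, and leaving out single libraries ended those for Slc2a3, Slc1a5 and Slc27a1. With the replicate block 3 were higher and 1 lower with Cort, 6 higher and 1 lower with Dex, and 12 higher and 12 lower with IL4, the lower one with each steroid being Slc16a3, the lactate exporter MCT4 (-0.63 ± 0.15 with Cort and -0.77 ± 0.15 with Dex).

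Ferroportin (Slc40a1), through which macrophages release recycled iron, had 139, 69.6 and 142 CPM with Cort, 129, 56.0 and 172 with Dex, 53.0, 43.5 and 58.4 with IL4 and 75.2, 51.5 and 90.8 with vehicle at its strongest peak, 37.8 kb from the gene with Wdr75 as a neighbouring gene and with the GR peak above inside it. Replicate 2 was the lowest library of every group. Without the block none of the 3 changes was called (0.69, 0.71 and -0.49 for Cort, Dex and IL4, adjusted p = 0.426, 0.292 and 0.344 in that order). With the replicate block all 3 were called (0.66 ± 0.14, 0.64 ± 0.14 and -0.45 ± 0.14, adjusted p = 0.0028, 0.0021 and 0.0135). Slc11a1 (NRAMP1), the phagosomal metal exporter that limits intracellular bacteria, was called with IL4 under the block alone (-0.50 ± 0.09, adjusted p = 0.0002, against 0.119 without it).

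Set directly against IL4, the steroids left higher H3K27ac near Slc27a2, Slc7a11, Slc15a2, Slc10a6 and Slc7a13 and lower H3K27ac near Slc7a14, Slc30a4, Slc25a30 and Slc25a13. With Dex against IL4 123 peaks were higher and 185 lower (30.3%, where 27% of all peaks were called, 12.3% higher and 14.8% lower), and with Cort against IL4 120 were higher and 177 lower (29.2%, where 25.4% were called, 11.5% higher and 13.9% lower). The Dex minus IL4 difference on the log2 scale was 3.76 ± 0.30 near Slc27a2, 3.17 ± 0.24 near Slc7a11, 2.68 ± 0.34 near Slc7a13, 2.57 ± 0.18 near Slc15a2 and 2.34 ± 0.20 near Slc10a6. The Cort minus IL4 difference was 3.32 ± 0.30 near Slc27a2, 2.77 ± 0.23 near Slc7a11, 2.33 near Slc15a2, 2.25 near Slc10a6 and 2.10 near Slc7a13. On the lower side it was -3.99 ± 0.36 near Slc7a14 and -3.44 ± 0.25 near Slc30a4 for Dex minus IL4, and -3.48 ± 0.35 and -3.39 ± 0.25 for Cort minus IL4. Under low-count scaling, which moved the median of all peaks by 0.17 and 0.22, Dex against IL4 gave 162 higher and 138 lower and Cort against IL4 177 higher and 114 lower. Over all 58618 peaks that scaling gave 9735 higher and 6517 lower for Dex against IL4, and 10172 and 5790 for Cort against IL4. With the replicate block 451 peaks were called for Cort against IL4 (206 higher, 245 lower), where 40.9% of all peaks were. For Dex against IL4 the block gave 461 (204 higher, 257 lower), where 43.1% of all peaks were called.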

How the data were processed

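Chromatin immunoprecipitation libraries for GR (15) and H3K27ac (12) from mouse macrophages were used, and the H3K27ac input library was not analysed here. Per the labels' protocols, GR libraries had a double crosslink (disuccinimidyl glutamate, then formaldehyde) and H3K27ac libraries a single one with formaldehyde. The authors deposited raw read counts for each peak on mm10, over 1 peak set per assay, made with fastp, Bowtie2, SAMtools, MACS2 and featureCounts, per the submitters' processing notes, whose versions are not given in the sources used here. Vehicle columns were matched by elimination, since their heading names no treatment.

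From these counts, peaks with at least 10 reads in at least 3 libraries were tested with edgeR 4.0.16 (TMM factors, quasi-likelihood F test, R 4.3.3) in 1 model per assay, to which the GR model added a batch term. Benjamini-Hochberg adjustment ran over all tested peaks, calls have an adjusted p under 0.05, and each SE was taken as the size of the log2 change over the root of its F value. Peaks went to the nearest protein-coding gene span of the RefSeq table, and the assignment says nothing of which gene a peak acts on. The fits were tested on simulated data: for Dex against vehicle, 65% of 4-fold and 7% of 2-fold changes were recovered over 57296 simulated H3K27ac peaks, and 36% and 0% over 4668 GR peaks.

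Same-numbered H3K27ac libraries deviated together from their group means (18 pairs, correlations 0.435 to 0.883, against -0.700 to 0.242 in 36 pairs of unequal number), so the replicate number was taken to pair them. The pairing comes from this check and not from the labels. The main H3K27ac fits leave it out, so their calls and the calls lost on leaving out a library rest on unpaired fits. The replicate block was run beside them as an alternative. GR numbers did not pair (21 pairs, -0.649 to 0.386).

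Alternatives were DESeq2 1.42.0, other scalings, filters, gene distances, single batches, the replicate block and the omission of each library. The named H3K27ac peaks are the 10 highest and 10 lowest per treatment among called peaks of at least median count whose groups do not overlap, 1 per gene, and a panel of 38 carriers. The members and lists were chosen with earlier results of these data known. Values of some genes are not reported here.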

Additional observations from a re-analysis of the deposited data

Results flagged for a closer look

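Each value here is a normalised GR count (CPM) of 1 library that lay far from the rest of its group, by the gap to its nearest neighbour over the range of the group, at a level that chance alone reaches in about 1 of 20 groups. There were 4 such values among 36 groups tested. Near Slc16a9 Cort replicate 4 had 343 CPM, where the other Cort libraries had 3.28 to 14.0, and Dex replicate 3 had 13.7, where the other Dex libraries had 4.53 to 5.52. Inside Slc30a4 vehicle replicate 4 had 195 CPM, where the other vehicle libraries had 77.7 to 96.5. Inside Slc6a9 Dex replicate 2 had 5.90 CPM, where the other Dex libraries had 1.38 to 1.78.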

How the results depend on the processing

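Counts of called solute carrier peaks that moved by more than 1.5 times are given here, and the cause was not tested. For H3K27ac with Cort (17 called) there were 28 with DESeq2, 11 with only the groups compared in the fit, 11 with genes within 10 kb and 123 with the replicate block. With Dex (55 called) there were 36 with only the groups compared and 207 with the replicate block. Cort against IL4 (297) gave 188 with an absolute log2 change of at least 1 and 451 with the replicate block, and Dex against IL4 (308) gave 200 with that minimum. For GR with Cort (17) there were 0 in batch 2 alone and 11 with no count filter, and with Dex (16) 2 in batch 2 alone and 25 with total-count scaling. Leaving out 1 library gave 6 (without vehicle replicate 3) to 25 (without Cort replicate 2) H3K27ac calls with Cort, 21 (without vehicle replicate 3) to 70 (without Dex replicate 2) with Dex, 216 to 278 with IL4, 189 to 251 for Cort against IL4 and 199 to 302 for Dex against IL4, with 13 to 16 GR calls for Cort and 13 to 17 for Dex. The Cort count was 8 without Cort replicate 1, Cort replicate 3 or vehicle replicate 2. Dex against Cort in both assays and IL4 against vehicle for GR gave 0 calls in each of these fits.

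Scaling moved the split of directions. Low-count scaling gave 10 higher and 4 lower H3K27ac peaks with Cort, total-count scaling 23 higher and 38 lower with Dex. For GR with Cort low-count scaling gave 13 higher and 2 lower, DESeq2 10 and 7, and a fit with no batch term 12 and 1.

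Among 510 named results, 184 were called. Over 7833 alternatives the outcome was the same in 7350 cases, a call was lost in 307 and gained in 129, and values moved in 45 and reversed in 2. The 7350 include uncalled results that stayed uncalled, with the same direction or a shift smaller than the SE. They thus do not measure how well calls held. The reversed ones are the GR change near Slc16a9 with Cort, 1.31 ± 1.11 with all libraries, which was -1.58 in batch 1 alone and -1.23 to 2.00 over the fits without 1 library (-1.23 without Cort replicate 4). The replicate block gained 71 calls and lost 1, and it changed no other call. For GR, whose numbers do not pair the libraries, the block gave 16 calls with Cort, 17 with Dex and 0 for Dex against Cort. Of the 62 GR peaks in an H3K27ac peak, 61 were covered over at least 50% of their length. In simulated GR counts for Dex against vehicle, a 2-fold change was recovered in 0% of cases.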

Other observations

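Genes that work beside the carriers, from lists that hold no solute carrier, were read in the same fits. H3K27ac peaks near 10 iron handling genes numbered 53, of which 16 rose and 2 fell with IL4, 1 rose and 1 fell with Dex and 0 were called with Cort. Over all peaks 14.9% rose and 13.1% fell with IL4. With IL4 the transferrin receptor Tfrc had a peak that rose by 2.34 ± 0.15, Aco1 (iron regulatory protein 1) one that rose by 2.68 ± 0.33 and the hepcidin gene Hamp one that rose by 2.23 ± 0.31, while Cp, the ferroxidase ceruloplasmin, fell by 3.11 ± 0.40. The Dex calls were the haem oxygenase gene Hmox1 (0.57) and Cp (-1.79). Peaks near glucose use genes numbered 74. Pfkfb3 and Pfkl, which set and carry out the phosphofructokinase step, rose with Cort (0.85 and 0.87) and with Dex (1.04 and 0.98), and each had a GR peak that rose (1.29 and 1.62 with Cort, 1.48 and 1.81 with Dex). With IL4 8 glucose use peaks rose, among them peaks near Hk2 (1.14) and Pkm (1.58), and 11 fell, among them one near Pfkfb3 (-2.08). These counts of 74 H3K27ac peaks are to be read against the 14.9% and 13.1% over all peaks.

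In the Slco family of organic anion carriers, which the symbol rule leaves out, 5 of 14 genes had 23 H3K27ac peaks, of which 0 rose and 3 fell with Dex and 2 rose and 5 fell with IL4. Over all peaks 2.97% rose and 2.41% fell with Dex, and 14.9% rose and 13.1% fell with IL4. The 3 falls with Dex all lay near 1 gene, Slco4a1. Slco4a1 fell by 0.87 with Dex and by 0.71 with IL4, and a GR peak near Slco2b1 rose by 1.73 with Cort and by 2.09 with Dex. With IL4 the monocarboxylate carrier chaperone Emb had a weak peak that fell by 2.48 (0.186 CPM with IL4, 1.15 with vehicle). Of the 13 chaperone peaks 2 fell and 0 rose with IL4. Among amino acid response genes Trib3 (1.89) and Psat1 (0.83) had peaks that rose with IL4, and Sesn2 one that fell by 1.36. The Trib3 peak was weak (2.41 CPM with IL4, 0.645 with vehicle). Of the 17 peaks of that list 3 rose and 3 fell with IL4, to be read against the shares over all peaks.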
